A study of Mus musculus with 4 samples.

Results

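Lefty1, Lefty2, Foxh1, Sox2, L1td1 and Dppa5a are 6 mouse genes of Nodal signalling and of the pluripotent state, and they were followed here across 4 testis libraries. They were chosen by their gene names from the authors' deposited comparisons, after the values were known, and all 6 were found among the 235 named genes and 382 transcripts of those comparisons. Each was selected on a listed difference, so the values describe the genes and test nothing. All 8 of their entries have IBU+ACE as one of the libraries, and in all 8 the level was lower in IBU+ACE.

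RNA came from gonads of wild-type CD1 embryos at E13.5, freed of the mesonephros. The study asked what exposure in the womb to acetaminophen and to non-steroidal anti-inflammatory drugs does to the forming testis. The 4 groups were Control (treatment labelled none; its library is called EtOH inside the tables), ACE+ACE (acetaminophen), ASP+ACE (aspirin with acetaminophen) and IBU+ACE (ibuprofen with acetaminophen), with 1 library each. The sources used here give neither the dose, nor the days of exposure, nor how many embryos went into a library. With 1 library per group there is no spread between replicates, and every difference is between libraries, not shown to be between treatments. A pair of libraries stood apart in other genes too, IBU+ACE in limb, cartilage and skin genes and Xist, which were high, and ACE+ACE in liver genes, which were low, with values given beside the results.

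Nodal is a secreted ligand of the TGF-beta family. It acts through activin receptors and a co-receptor, which activate SMAD proteins, and these bind DNA with the forkhead factor FOXH1. LEFTY1 and LEFTY2 are secreted inhibitors of Nodal that are themselves switched on by the pathway. In the fetal mouse testis Nodal signalling is active in germ cells for a short time after sex determination, while the same cells still express pluripotency genes such as Sox2. Male germ cells then silence both, stop dividing and start the programme that methylates DNA and silences transposons.

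The Lefty genes lie close to each other on chromosome 1 and resemble each other, which bears on how far their levels can be told apart. Their coding sequences are 1104 nt each and 91.8% identical in the GENCODE M21 transcripts, with 90 differing bases. The libraries were read in stretches of 75 nt, so the stretches of that length where the genes are most alike and most different are shown, both 5′ to 3′ on the plus strand of GRCm38. In the first, from coding exon 2 (Lefty1 at chr1:180936568-180936642, Lefty2 at chr1:180894156-180894230), the genes have 0 differing bases and share 1 sequence. In the second, from coding exon 1 (Lefty1 at chr1:180935160-180935234, Lefty2 at chr1:180893234-180893308), capitals mark the 23 bases that differ.

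Lefty1 and Lefty2, most alike: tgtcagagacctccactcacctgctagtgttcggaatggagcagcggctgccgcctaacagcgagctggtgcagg
Lefty1, most different: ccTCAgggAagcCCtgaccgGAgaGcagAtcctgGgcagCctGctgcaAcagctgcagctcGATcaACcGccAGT
Lefty2, most different: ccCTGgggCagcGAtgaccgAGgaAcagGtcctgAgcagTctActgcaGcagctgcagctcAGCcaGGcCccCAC

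Of the 1030 windows of 75 nt along the coding sequence, 173 are identical between the genes and 460, or 44.7%, differ at 2 bases or fewer. Over the whole annotated transcripts the identical windows come to 11.2% of Lefty1 and 7.21% of Lefty2. The windows were taken singly but the reads were paired, so these shares do not measure how many fragments fit both genes. The sources used here do not say how reads that fit both genes were shared out, so the split of a level between Lefty1 and Lefty2 is uncertain.

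**Figure D1:**
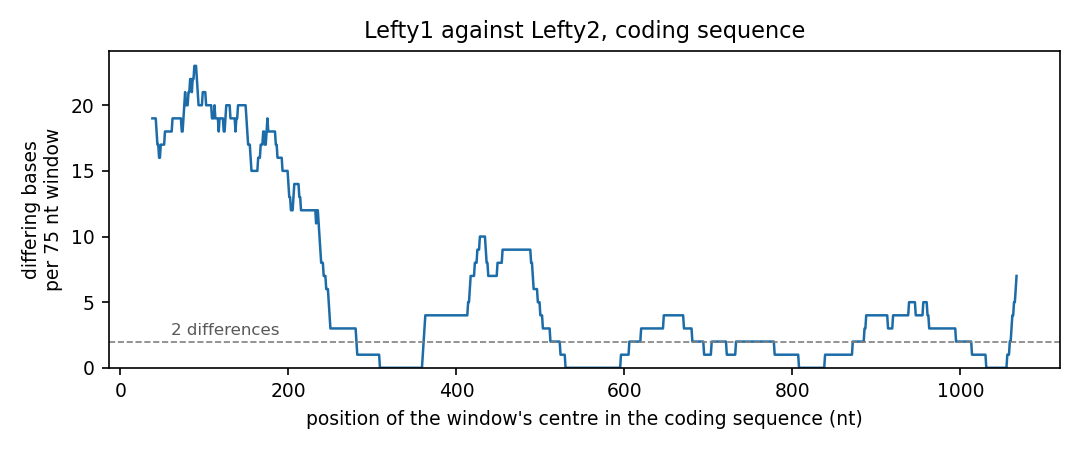
Differing bases between Lefty1 and Lefty2 (y axis) in each 75 nt window of the coding sequence, plotted at the window's centre (x axis, nt). The genes differ most near the start of the coding sequence, with up to 23 differences in a window, and 173 of the 1030 windows have 0; the dashed line marks 2 differences.

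Each level is a value deposited by the authors and taken as FPKM, a count of fragments divided by transcript length and by library size. How many reads lie behind a level is unknown. The deposited tables, 1 for each pair of libraries, hold only transcripts that the authors marked as significant, and all 726 entries carry the same q of 0.0310. A gene is said here to have fallen or risen only where such a table lists it. A missing entry means no call, not equal levels, and 10 of the 24 values of the 6 genes in 4 libraries could not be read for that reason. The tables with IBU+ACE hold 591 of the 726 entries, or 81.4%.

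Lefty1 (chromosome 1, 180935022 to 180938400) is the gene of the 6 with a value in all 4 libraries. It had 9.37 FPKM in Control, 11.0 FPKM in ACE+ACE, 8.41 FPKM in ASP+ACE and 4.53 FPKM in IBU+ACE. IBU+ACE was the lowest library, and the other three lay between 8.41 and 11.0 FPKM. The level in IBU+ACE was 48.3% of that in Control, 41.0% of that in ACE+ACE and 53.8% of that in ASP+ACE. The log2 fold changes in the authors' deposited tables were -1.05 against Control, -1.29 against ACE+ACE and -0.89 against ASP+ACE. These 3 comparisons share the IBU+ACE library and are not independent. Among the remaining pairs, none of which is listed, log2 of the ratio computed from the same values was 0.24 for ACE+ACE over Control, -0.16 for ASP+ACE over Control and -0.39 for ASP+ACE over ACE+ACE.

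Lefty2 (chromosome 1, 180893108 to 180899103) was listed between ACE+ACE and IBU+ACE alone, at 11.7 FPKM and 7.37 FPKM. Its log2 fold change there was -0.67 in the authors' deposited table, against -1.29 for Lefty1 in the same libraries. The level of Lefty1 relative to Lefty2 was 0.940 in ACE+ACE and 0.614 in IBU+ACE. No value of Lefty2 could be read for Control or ASP+ACE, so the pair of genes cannot be compared there.

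**Figure D2:**
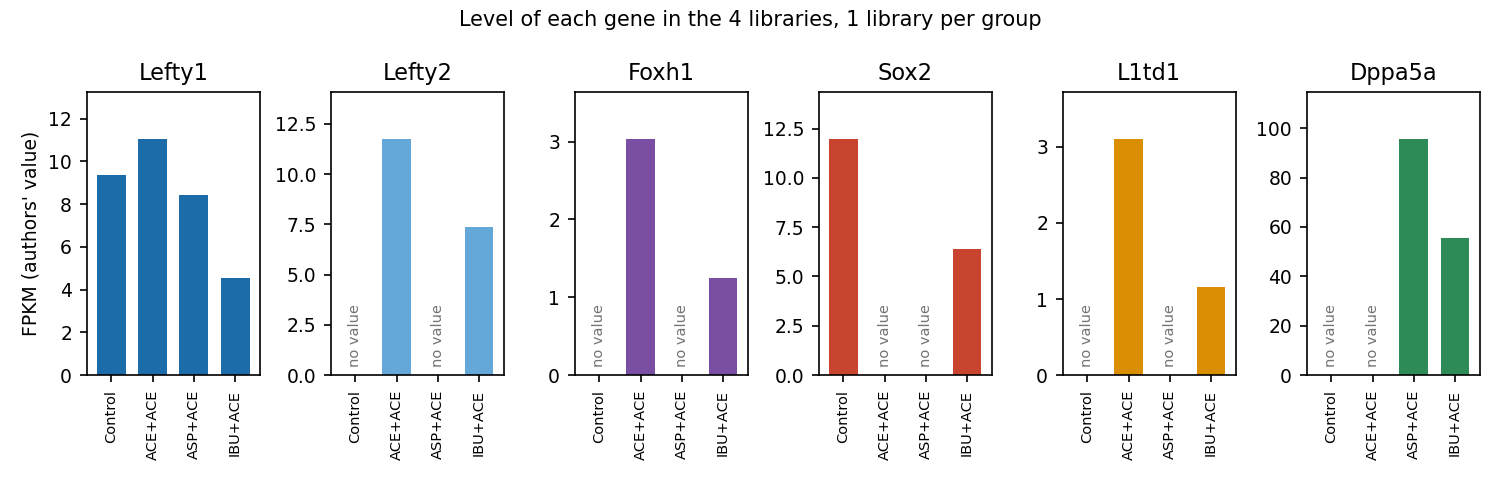
FPKM (y axis, from 0, scaled separately for each gene) of the 6 genes in each library (x axis), 1 bar per library with no error bar because each group has 1 library. IBU+ACE has the lowest bar of every gene, but for every gene except Lefty1 only 2 libraries have a bar. The words "no value" mark libraries for which no table lists the gene, which is not a level of 0.

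Foxh1 (chromosome 15, 76668284 to 76669948), the forkhead partner of the Nodal SMADs, had 3.03 FPKM in ACE+ACE and 1.24 FPKM in IBU+ACE. On the log2 scale the authors' deposited table gives a change of -1.28, beside -1.29 for Lefty1 in the same comparison. The deposited locus covers the annotated gene except for its last bases on the minus strand, and no other annotated gene overlaps it.

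The Nodal pathway genes beyond these 3 had no entry in any table. A list of 34 genes covered ligands and their processing, receptors and SMADs, inhibitors, and targets, and 31 of them were not listed. None of the 9 ligand and co-factor genes was listed, Nodal itself and its co-receptor gene Tdgf1 (Cripto) included. Of the 9 receptor and SMAD genes 1 was listed, Foxh1, and of the 9 inhibitors 2 were, Lefty1 and Lefty2. The same 2 genes were the listed ones among 10 target genes, and Eomes and Mixl1 were not listed. All 34 symbols are in the annotation, and 0 of the 142 unnamed transcripts in the tables overlap a gene of this list or of the pluripotency list. Levels of the unlisted genes are not known here, so nothing can be said of whether the ligand itself differed.

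Sox2, a core transcription factor of pluripotent cells, was listed at 12.0 FPKM in Control against 6.39 FPKM in IBU+ACE. The authors' deposited table gives this as -0.91 on the log2 scale. Its deposited locus (chromosome 3, 34104270 to 34682619) has exactly the span of Sox2ot, the long non-coding RNA gene within which Sox2 lies, and overlaps 15 annotated genes. The annotated Sox2 gene takes up 34650405 to 34652461 of it. Which exons the listed transcript holds was not analysed here, so its level may be that of Sox2, of Sox2ot or of both.

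L1td1, an RNA-binding protein gene of pluripotent and germ cells (chromosome 4, 98726716 to 98739243), had 3.10 FPKM in ACE+ACE and 1.15 FPKM in IBU+ACE. This is the largest fall among the 8 entries, to 37.2% of the level in ACE+ACE, or -1.43 on the log2 scale in the authors' deposited table. It was also the lowest of the 6 levels in IBU+ACE. Dppa5a, a KH-domain gene used as a marker of pluripotent and early germ cells (chromosome 9, 78367052 to 78368177), had 95.5 FPKM in ASP+ACE and 55.4 FPKM in IBU+ACE. It was the most abundant of the 6 genes per length in IBU+ACE, and its log2 fold change was -0.79 in the authors' deposited table.

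Dppa5a also has near copies elsewhere in the genome. Of its 545 windows of 75 nt, 106 or 19.4% occur unchanged in transcripts of other genes, among them the pseudogenes Dppa5b and Dppa5c. Its level may therefore include reads of those copies, or lack reads given to them. For Foxh1, Sox2 and L1td1 the number of such windows was 0. The count for Sox2 is of its annotated transcript, and the listed level may be that of Sox2ot, which was not searched.

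In IBU+ACE, where all 6 have a value, the order of the FPKM levels was Dppa5a at 55.4, Lefty2 at 7.37, Sox2 at 6.39, Lefty1 at 4.53, Foxh1 at 1.24 and L1td1 at 1.15. In ACE+ACE it was Lefty2 at 11.7, Lefty1 at 11.0, L1td1 at 3.10 and Foxh1 at 3.03. Whether neighbours in these orders differ beyond their error cannot be said with 1 library. Lefty2 stood above Lefty1 in both libraries, while L1td1 stood above Foxh1 in ACE+ACE and below it in IBU+ACE.

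Counted by comparison, 4 of the 6 genes fell from ACE+ACE to IBU+ACE, 2 from Control to IBU+ACE and 2 from ASP+ACE to IBU+ACE, with 0 rising. Lower transcripts were the smaller part of each table. They made up 10.8% of the transcripts listed for ACE+ACE against IBU+ACE, 18.4% for Control against IBU+ACE and 8.05% for ASP+ACE against IBU+ACE. Since the genes were picked from these tables, nothing is read from their counts beside those shares. The median log2 fold change of the genes listed was -1.29, -0.98 and -0.84 in the same order, against 1.82, 1.57 and 1.80 over all listed transcripts. Nothing is read from this contrast either, since the genes were picked with these values known. The 3 tables without IBU+ACE list 0 of the 6.

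**Figure D3:**
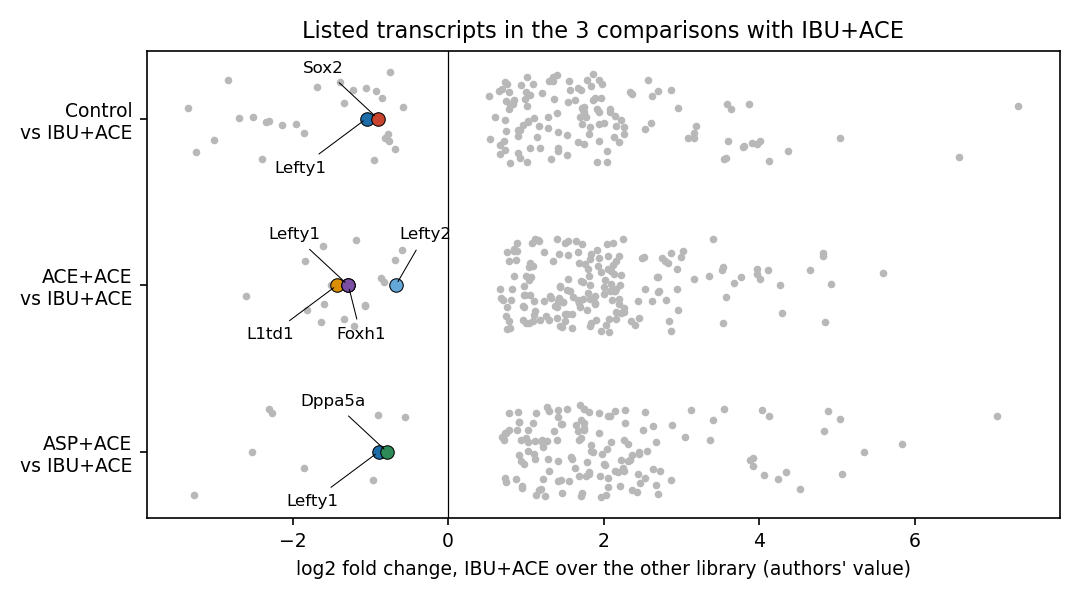
Log2 fold change in the authors' deposited tables, IBU+ACE over the other library (x axis), for every listed transcript with a level above 0 in both libraries, in the 3 comparisons with IBU+ACE (y axis). Grey points are other transcripts, spread vertically to be seen, and coloured points are the 6 genes, which lie between -1.43 and -0.67; Lefty1 is covered by Foxh1 in the middle row.

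Within the transcripts that fell, the 6 genes were not at the extreme. Between ACE+ACE and IBU+ACE, L1td1 took rank 13, Lefty1 rank 15, Foxh1 rank 16 and Lefty2 rank 24 of 25 lower transcripts, counted from the largest fall. Lefty1 and Sox2 took ranks 24 and 27 of 34 against Control, and Lefty1 and Dppa5a ranks 12 and 13 of 14 against ASP+ACE. Transcripts listed at 0 in IBU+ACE were counted as the largest falls, 5 against ACE+ACE, 6 against Control and 4 against ASP+ACE. Over the remaining falls the median log2 fold change was -1.29, -1.36 and -1.41 in that order. The fall of Lefty2 was close to the smallest change listed in its table, 0.59 on the log2 scale in absolute value.

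Tdh and Podxl, pluripotency genes beyond the 6, were also listed as lower in IBU+ACE. Of a list of 35, 5 were listed in any table, and all 5 fell: Sox2, L1td1 and Dppa5a of the 6 genes, plus Tdh and Podxl. The list was written with earlier results known and the 6 genes were picked from these values, so nothing is read from this count. Of all listed transcripts, 10.8% were lower in IBU+ACE against ACE+ACE, 18.4% against Control and 8.05% against ASP+ACE. Tdh, the threonine dehydrogenase on which mouse pluripotent cells depend, fell from 10.6 FPKM in ACE+ACE to 4.69 FPKM in IBU+ACE. Podxl, a sialomucin of the cell surface, fell from 19.4 FPKM in Control to 13.0 FPKM in IBU+ACE. The other 30, with Pou5f1 and Nanog among them, had no entry.

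Genes of the later male germ cell programme were listed in both directions in the same library. Of 15 such genes, 4 rose and 1 fell in IBU+ACE against Control, and 4 rose and 1 fell against ACE+ACE. Over all transcripts listed in these comparisons 81.6% and 89.2% were higher in IBU+ACE, so that direction is not particular to these genes. Dnmt3l, the cofactor of DNA methylation in fetal male germ cells, was at 1.24 FPKM in Control, 0.619 FPKM in ACE+ACE and 4.41 FPKM in IBU+ACE. Tdrd9, a helicase of the piRNA pathway, was at 2.37, 2.64 and 5.94 FPKM in the same order, and Morc1, needed for transposon silencing, at 8.84, 8.24 and 14.2 FPKM. Tex15 rose from 11.9 FPKM in Control to 19.9 FPKM in IBU+ACE, and Tex101 from 4.83 FPKM in ACE+ACE to 8.67 FPKM in IBU+ACE. Sohlh2 had 8.30 FPKM in Control, 8.37 FPKM in ACE+ACE and 4.71 FPKM in IBU+ACE and was the 1 that fell in both. None of the 15 was listed between ASP+ACE and IBU+ACE. The lists do not hold every germ cell gene. Tex19.1, on none of them, was listed at 44.6 FPKM in ASP+ACE and 30.4 FPKM in IBU+ACE, and was picked after its values were seen. Of 13 genes expressed by germ cells in general, such as Ddx4 and Dazl, 0 were listed in any table. The comparisons name 235 genes in all and give no level for an unlisted one, so nothing is read from this 0. In whole gonads, fewer germ cells and less RNA of a gene per germ cell cannot be told apart.

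Limb, cartilage and skin genes were high in the same library. Of 21 limb, cartilage and skin genes, 14 rose in IBU+ACE against Control, 11 against ACE+ACE and 14 against ASP+ACE, with 0 falling. Most listed transcripts were higher in IBU+ACE in these comparisons, 81.6%, 89.2% and 92.0% in that order. The 11 of them with a value in all 4 libraries summed to 11.7 FPKM in Control, 8.89 FPKM in ACE+ACE, 7.37 FPKM in ASP+ACE and 107 FPKM in IBU+ACE. Evx2 was listed at 0 in ASP+ACE. Hoxd13, a gene of the distal limb and genital tubercle, had 0.0680 FPKM in Control, 0.0821 FPKM in ASP+ACE and 11.0 FPKM in IBU+ACE. Xist, a long non-coding RNA through which female cells silence an X chromosome, had 0.954 FPKM in Control, 0.710 FPKM in ACE+ACE, 0.668 FPKM in ASP+ACE and 11.1 FPKM in IBU+ACE; its deposited locus (chromosome X, 103414467 to 103484957) also covers the antisense gene Tsix.

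Liver genes set ACE+ACE apart, the library against which 4 of the 6 genes were listed. Of 15 liver genes, 12 fell in ACE+ACE and 2 in ASP+ACE against Control, and 6 were higher in ASP+ACE than in ACE+ACE. In IBU+ACE 9 were higher than in ACE+ACE, 3 were higher than in ASP+ACE and 0 were listed against Control. Most listed transcripts, liver genes included, went the same way, save in IBU+ACE against Control, where no liver gene was listed. Against Control, 74.6% of them were lower in ACE+ACE and 65.9% in ASP+ACE, and 58.3% were higher in ASP+ACE than in ACE+ACE. In IBU+ACE, 81.6% were higher against Control, 89.2% against ACE+ACE and 92.0% against ASP+ACE. The 7 liver genes with 4 values summed to 217 FPKM in Control, 60.6 FPKM in ACE+ACE, 137 FPKM in ASP+ACE and 230.4 FPKM in IBU+ACE. Of 15 neural genes, a further tissue that expresses Sox2, 0 were listed, from which nothing is read. Of 15 Sertoli cell genes 2 were listed, both higher in IBU+ACE. Cst9, a cystatin gene of these cells, rose from 63.3 FPKM in Control to 114 FPKM in IBU+ACE. Sox9, the Sertoli cell factor that cartilage also expresses, was at 5.98, 5.97 and 5.22 FPKM in Control, ACE+ACE and ASP+ACE and rose to 10.04 FPKM in IBU+ACE. The part of other tissue, or of female cells, in the lower levels of the 6 genes was not tested.

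**Figure D4:**
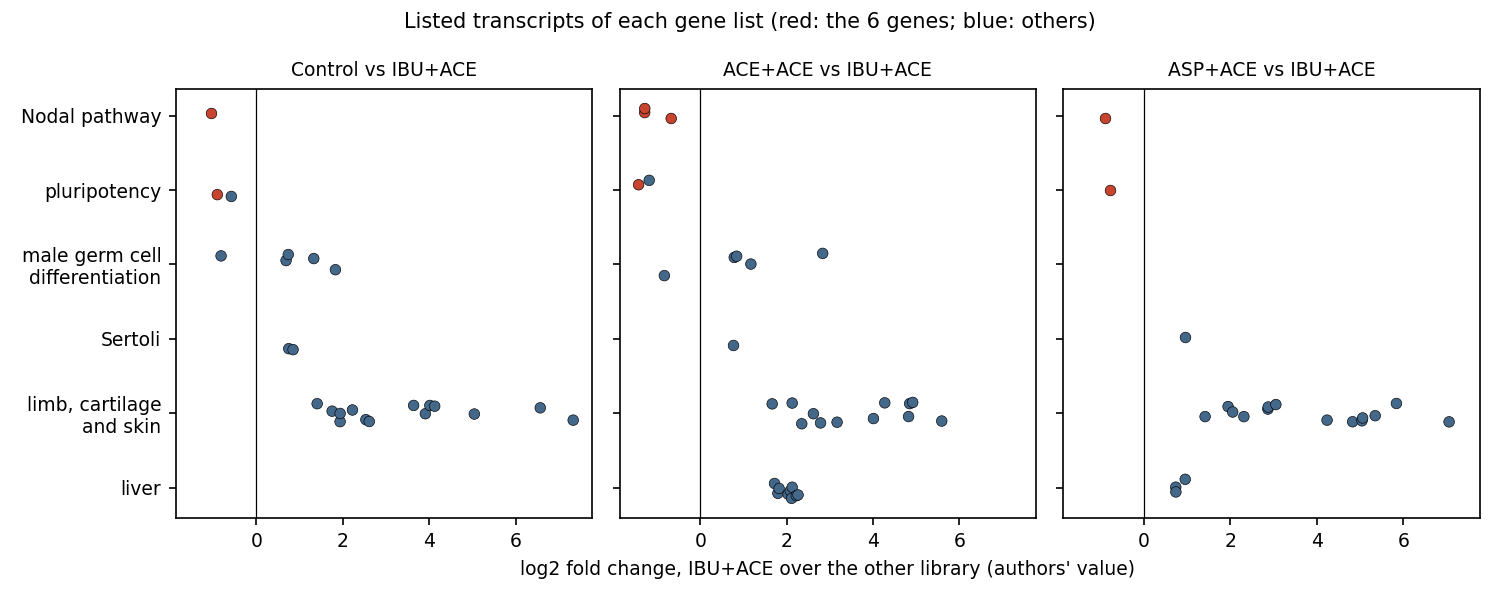
Log2 fold change in the authors' deposited tables, IBU+ACE over the other library (x axis), for each listed transcript of 6 gene lists (y axis), 1 panel per comparison; Evx2, listed at 0 in ASP+ACE, is not drawn. Nodal and pluripotency genes (red for the 6 genes, blue for others) lie below 0, male germ cell genes on both sides, and Sertoli, limb, cartilage, skin and liver genes above 0, with 0 liver genes listed against Control.

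The transcripts whose pattern over the 4 libraries was most like that of Lefty1 were sought among 91 named ones with a level above 0 in each. Likeness was the root mean square difference of log2 levels, each centred on its own mean. The nearest was the pseudogene Rps2-ps13, at 0.28, with 75.6 FPKM in Control, 134 FPKM in ACE+ACE, 61.1 FPKM in ASP+ACE and 44.3 FPKM in IBU+ACE. The embryonic globin gene Hbb-y followed at 0.32 and the pseudogene Rpsa-ps10 at 0.61, and the last of these was not lowest in IBU+ACE. Only genes listed in several tables could enter this search.

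RefSeq promoter windows of GRCm38.p6, 250 bases before to 50 after the gene start, were at hand for 2 of the 6 genes, Sox2 and L1td1. As the listed Sox2 level may be that of Sox2ot, the Sox2 window may not be the promoter of the listed transcript. The FOXH1 motif TGTGNATT, the octamer ATGCAAAT and the SOX motif ACAATG, searched on both strands, had 0 matches in either window. They occur in 3.60%, 1.74% and 12.6% of 32851 promoter windows of that length. The SMAD motif CAGAC had 2 matches in the L1td1 window and 0 in the Sox2 window, and 49.6% of all windows hold it.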

How the data were processed

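Total RNA was depleted of ribosomal RNA and sequenced as stranded, paired 75 nt reads, per the labels' protocols. Per the submitters' processing notes, Bowtie2 2.2.6, TopHat2 2.1 and Cufflinks 2.2.1 were used with GRCm38, beside bcl2fastq 2.17, SAMtools 1.3 and FastQC, with no settings given. The authors deposited 6 tables, 1 per pair of libraries, whose FPKM values, log2 fold changes (second library over first), p-values and q-values were used as given. The unit FPKM is read from the tables' layout, since the file headers do not name it. All 726 rows have status OK, p 5e-05 and q 0.0310, and rows are assembled transcripts. Per the file headers the libraries are named EtOH, ACE, Asp and Ibu, and EtOH was matched to Control as the one remaining.

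Decimal commas were turned into points with pandas 2.3.3 and numpy 2.4.6 under Python 3.11.15, figures were drawn with matplotlib 3.10.9, and values were combined across tables, where 0 disagreed. Reading and counting were checked on simulated data. Start positions were raised by 1. Windows of 75 nt were searched in GENCODE M21 transcripts on both strands. No test was run, with 1 library per group. The 6 genes, the 11 gene lists and the motifs were chosen with earlier results of these data known. One gene of the target list is not reported here and was left out of that list's counts. Named genes are the 6, every listed Nodal, pluripotency and germ cell list gene, examples of other tissues, and the 3 transcripts most like Lefty1. Xist and Tex19.1 were added after their values were seen. Alternatives were a minimum log2 fold change of 1, a higher level of at least 1 or 5 FPKM, leaving out loci with several genes, and adding 1 or 0.1 FPKM.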

Additional observations from a re-analysis of the deposited data

How the results depend on the processing

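Requiring a change of at least 1 on the log2 scale left 1 of the 2 genes against Control (Lefty1), 3 of 4 against ACE+ACE and 0 of 2 against ASP+ACE. A higher level of at least 5 FPKM left 2 of the 4 genes against ACE+ACE, Lefty1 and Lefty2. Leaving out the locus that spans several genes removed Sox2 and left 1 gene against Control. Adding the same amount to both values cannot change the sign of a log2 fold change, only its size. The 8 log2 fold changes, between -1.43 and -0.67 as deposited, lay between -1.12 and -0.61 with 1 FPKM added. With 0.1 FPKM added they lay between -1.35 and -0.67. Leaving out 1 library at a time, chosen after seeing the data, left between 0 and 5 of the 6 genes listed in any table: 0 without IBU+ACE, 3 without ACE+ACE, and 5 without Control or without ASP+ACE. All 8 entries have IBU+ACE as one of the libraries, so the 0 was fixed beforehand. The other counts restate which comparison lists each gene. No paired analysis was possible because each group has 1 library. No read counts were at hand, and how depth limits these levels is therefore unknown.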
